A study of Mus musculus with 49 samples.

Results

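The genes that encode the enzymes of purine and pyrimidine nucleotide synthesis were examined in mouse CD8+ T cells that were stimulated with IL-2. The group was fixed by name as 37 genes, from the first step of purine synthesis to the enzymes that make and guard the deoxynucleotides. All 37 were found among the 23992 gene symbols of the count tables, and all 37 passed the filter on low counts that left 15562 genes for testing.

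Cells make purines de novo by building the ring on phosphoribosyl pyrophosphate (PRPP), the activated ribose donor, whereas the pyrimidine ring is assembled first and then joined to PRPP. Salvage enzymes recover free bases and nucleosides, kinases raise monophosphates to triphosphates, and ribonucleotide reductase converts ribonucleotides into the deoxynucleotides needed to copy DNA. Resting T cells have small nucleotide pools, and T cells that enter the cell cycle are known to depend on both de novo pathways.

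RNA-seq was performed on CD8+ T cells purified by negative selection from spleens of C57BL/6J mice of 2 lines. The Stat5a line carries a knockin (KI) that replaces the phosphorylated tyrosine of STAT5A with phenylalanine, and the Stat5b line carries the matching change in STAT5B, made in the germ line so that every cell of the homozygous KI mice has it. WT cells came from the same line as the KI cells with which they were compared, and the other STAT5 protein was unaltered in each KI. Cells were collected freshly isolated (0 hr) or after 4, 24, or 48 hr in IL-2 (recombinant human protein, 500 IU/ml), with 3 libraries in each of the 16 groups of line, genotype, and time. The study used adult mice of both sexes, and the age and sex behind each library are not given in the sources used here. Nothing in the labels says that the libraries of a group came from separate mice, so p-values measure the spread between these libraries, which may be technical.

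The third KI library of the Stat5a line at 4 hr was left out because it held 1028503 reads on the longest transcripts, against 17369537 to 60202776 in the other 47 libraries. Among the libraries used, replicate 2 of the Stat5a WT cells at 4 hr stood apart, since 44.86% of its mapped reads fell on those transcripts, against a median of 75.29%. This share also moved with the groups. In the Stat5b line it was 70.67 to 74.07% in WT cells at 0 hr, 83.24 to 84.44% in WT cells at 48 hr, and 72.64 to 78.51% in KI cells at 48 hr, and in the Stat5a line 69.22 to 71.92%, 80.55 to 84.07%, and 77.67 to 80.60%. RPKM are divided by mapped reads and carry these differences, whereas the edgeR fit was scaled by the reads on the transcripts. RPKM are reads per kilobase of transcript and per unit of mapped reads, and all levels below are given in them. In replicate 2 of the Stat5a WT cells at 4 hr they were lower than in the other 2 WT libraries for most of the genes. The counts of genes called at 4 hr in the Stat5a line are given with and without this library. The fewest reads on any of the 37 genes in a used library were 26, for Tk1 in that same library.

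The CD8 T cell markers were abundant in every group, with a summed RPKM over 6 markers of 1294, 1467, and 1436 in Stat5b WT and 1152, 1122, and 1081 in Stat5b KI cells at 0 hr. At 48 hr these sums were 1197, 1211, and 1233 in Stat5b WT and 1860, 1755, and 1674 in Stat5b KI cells, and 1354, 1246, and 1233 against 1678, 1834, and 1696 in the Stat5a line. None of the 6 was called at 48 hr, and on the adjusted p alone 5 were higher in Stat5b KI (31.1% of all genes) and 4 in Stat5a KI cells (18.6%). At 0 hr, on the adjusted p alone, 6 of the 6 were lower in Stat5b KI and 2 in Stat5a KI cells. The share of all genes under that rule was not counted at 0 hr. All 6 log2 differences were negative in both lines at that time. Their median was −0.37 in Stat5b and −0.25 in Stat5a KI cells, against −0.007 and −0.01 over all genes tested. Markers of other cells were present too. At 48 hr the summed RPKM of the B cell markers in the files, with Cd79a the most abundant in KI cells, was at most 13.3 in Stat5b WT libraries and between 119.1 and 124.7 in Stat5b KI libraries, and 38.2, 30.8, and 13.0 in Stat5a WT libraries with a median of 108.3 in Stat5a KI libraries. Erythroid markers, led by Hbb-bs in KI cells, summed to 4.71, 5.63, and 8.27 in Stat5b WT and 206, 110.8, and 170 in Stat5b KI libraries at that time. Myeloid markers, led by Lyz2 in KI cells, summed to 3.25, 3.18, and 4.45 in WT and 85.1, 53.7, and 68.1 in KI libraries of the Stat5b line. In the Stat5a line at 48 hr the erythroid sums were 6.4, 7.25, and 8.02 in WT and 22.5, 17.9, and 18.25 in KI libraries. All 6 erythroid log2 differences there were positive, with a median of 1.363. The myeloid sums in that line were 7.30, 5.79, and 3.04 in WT and 55.8, 21.5, and 20.3 in KI libraries. Of the markers tested at 48 hr, 6 of 6 for B cells were higher in KI cells of both lines, 5 of 7 (Stat5a) and 7 of 7 (Stat5b) for myeloid cells, 0 of 6 and 6 of 6 for erythroid cells, and 2 of 4 and 3 of 4 for CD4 T cells, where 5.85% (Stat5a) and 15.7% (Stat5b) of all genes were higher by the rule given below. Of 4 NK cell markers 1 was higher (15.7% of all genes) and 1 lower (10.7%) in Stat5b KI cells at 48 hr. Their sums were 12.2, 13.5, and 10.3 in WT and 18.2, 17.2, and 14.8 in KI libraries. At 0 hr 2 were lower (0.617% of all genes). The sums at that time were 4.52, 6.25, and 6.16 in WT and 2.46, 2.84, and 1.98 in KI libraries. The part of these cells in the results below was not tested, and in bulk RNA fewer cells of a type and less RNA per cell cannot be told apart.

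The first comparison asked how the genes changed in WT cells from 0 hr to each time in IL-2. No group was cultured without IL-2, so IL-2 and time in culture cannot be told apart in these changes. A gene was called when its edgeR quasi-likelihood test gave a p of 0.05 or less after Benjamini-Hochberg adjustment over all genes tested and its fold change was at least 2. At 48 hr 26 of the 37 genes rose in the Stat5a line, where 16.0% of all genes rose, and 26 of 37 rose in the Stat5b line, where 16.2% did. All 26 were shared by both lines, which have no library in common. Ampd3 was the single gene that fell in each line, against 20.8% of all genes in the Stat5a and 19.2% in the Stat5b line. The median log2 change over the 37 genes was 1.496 and 1.491, against −0.04 and −0.05 over all genes tested.

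**Figure D1:**
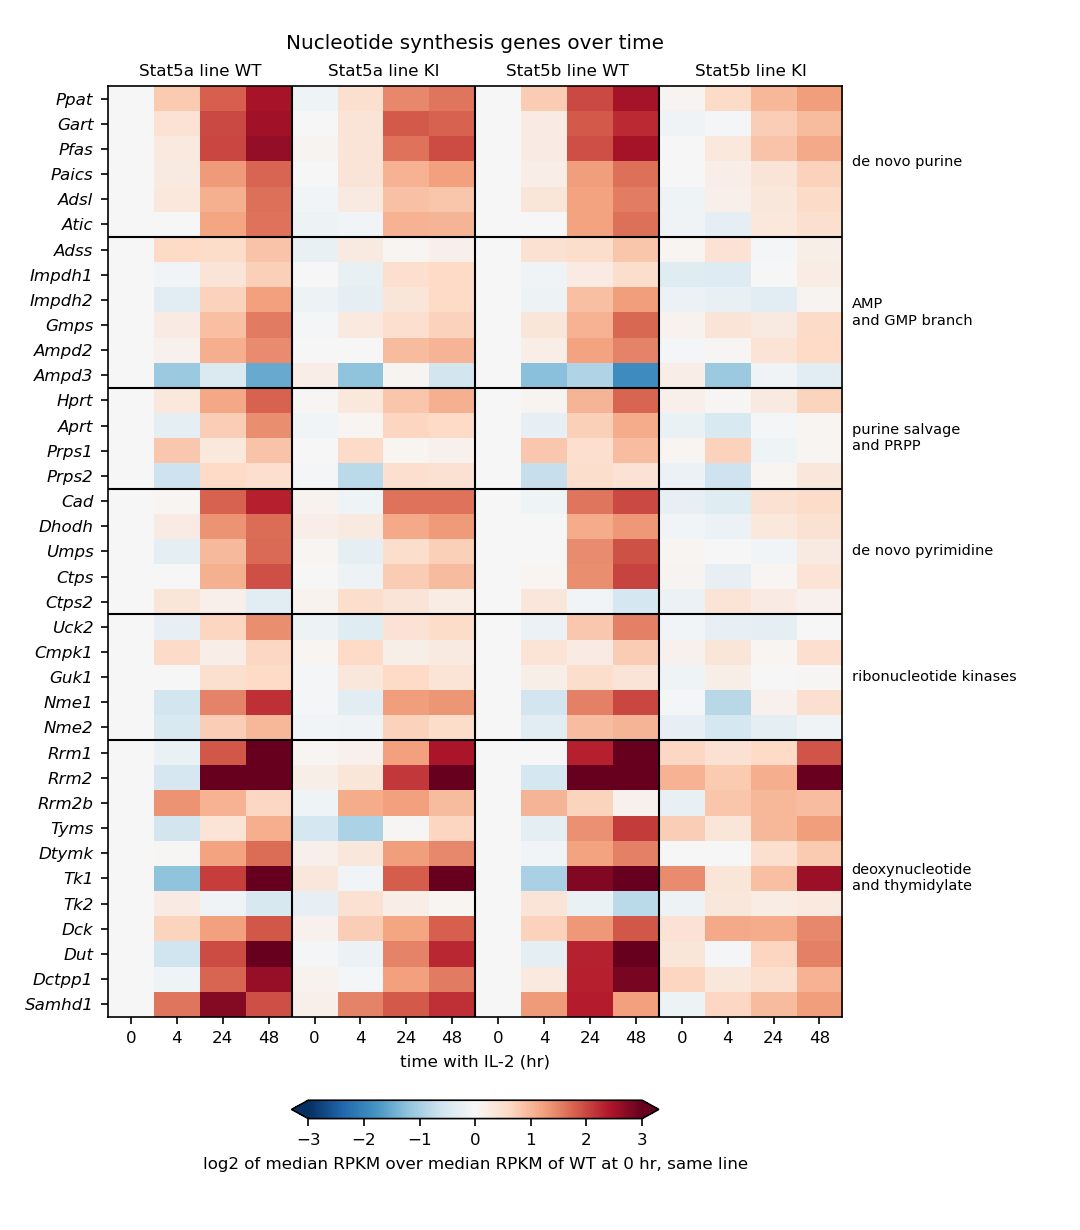
Heat map of the log2 ratio of the median RPKM of each group to the median RPKM of WT cells at 0 hr in the same line, with 1 row per gene in 6 role groups and 1 column per group of line, genotype, and time (colours end at −3 and 3). Most rows darken from 4 to 48 hr in WT cells, less in Stat5a KI, and least in Stat5b KI cells, while Ampd3 fades to blue in WT cells.

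The rise was late. At 24 hr 16 genes rose in the Stat5a line (9.18% of all genes) and 20 in the Stat5b line (9.90%), of which 15 were shared. These 15 were Ppat, Gart, Pfas, Paics, Atic, Cad, Nme1, Rrm1, Rrm2, Tk1, Dut, Dctpp1, Dtymk, Dck, and Samhd1, with Dhodh called in the Stat5a line alone and Adsl, Ampd2, Hprt, Umps, and Ctps in the Stat5b line alone. At that time Ampd3 was the single gene that fell in the Stat5b line (12.7%), and 0 fell in the Stat5a line (13.9%). At 4 hr Rrm2b, Samhd1, and Tyms, 3 genes, rose (11.1%) and Ampd3 and Tk1, 2 genes, fell (10.6%) in the Stat5a line. In the Stat5b line 1 gene, Samhd1, rose (6.10%) and the same 2 fell (9.52%). Without the library that stood apart, the Stat5a counts at 4 hr were 2 and 2. The median RPKM in WT cells was highest at 48 hr for 31 of the 37 genes in the Stat5a line and for 30 in the Stat5b line.

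All 6 enzymes of de novo purine synthesis rose at 48 hr in both lines, by 1.496 to 2.422 on the log2 scale in the Stat5a and 1.45 to 2.39 in the Stat5b line. They are Ppat, which commits PRPP to the pathway, Gart, Pfas, Paics, Adsl, and Atic, which closes the ring of IMP. Pfas, which makes formylglycinamidine ribonucleotide, stood at 3.28, 3.29, and 4.11 RPKM in Stat5a WT cells at 0 hr and at 19.8, 22.3, and 20.4 at 48 hr. Ppat was an early member. Its log2 change at 4 hr was 0.66 ± 0.07 (SE) in the Stat5a line (adjusted p = 1.2e-10) and 0.62 ± 0.07 in the Stat5b line (adjusted p = 7.6e-10), short of the fold threshold.

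Beyond IMP, Impdh2, the inducible form of the enzyme that starts GMP synthesis, rose at 48 hr with Gmps, which completes it, and with Ampd2, an AMP deaminase. Adss, which starts AMP synthesis, and Impdh1 changed by 0.70 and 0.57 in the Stat5a line, below the threshold on size. Ampd3, the other AMP deaminase, went the opposite way. In the Stat5b line it stood at 1.86, 1.98, and 1.91 RPKM in WT cells at 0 hr, at 0.6004, 0.8043, and 0.9917 at 4 hr, and at 0.518, 0.456, and 0.725 at 48 hr, so that no library with IL-2 at these times overlapped those at 0 hr. Its log2 change at 48 hr was −1.85 ± 0.17 (adjusted p = 3.5e-12), and −1.62 ± 0.17 in the Stat5a line (adjusted p = 8.0e-11).

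In the salvage group Hprt and Aprt, which join free purine bases to PRPP, rose at 48 hr in both lines. The PRPP synthetases moved in different ways at 4 hr. Prps1 went from 22.4, 21.9, and 22.2 RPKM at 0 hr to 48.8, 37.3, and 39.1 at 4 hr in Stat5b WT cells, a log2 change of 0.76 ± 0.08 (adjusted p = 3.8e-10). Prps2 went from 20.3, 18.8, and 18.7 to 10.9, 11.7, and 14.2, a log2 change of −0.81 ± 0.13 (adjusted p = 1.3e-06). The libraries of the 2 times did not overlap for either gene, and neither change reached the fold threshold.

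Of the pyrimidine enzymes, Cad (the first 3 steps), Dhodh (the mitochondrial step), Umps (which makes UMP), and Ctps (which makes CTP) rose at 48 hr in both lines. Cad went from 10.2, 11.7, and 11.6 to 45.9, 42.5, and 48.3 RPKM in Stat5b WT cells. Ctps2, the second CTP synthase, went from 11.2, 11.2, and 10.9 to 7.79, 7.69, and 7.93, a log2 change of −0.60 ± 0.07 (adjusted p = 3.2e-10). Of the kinases Uck2, which phosphorylates uridine and cytidine, and Nme1, a nucleoside diphosphate kinase, rose, whereas Nme2, Cmpk1, and Guk1 changed by 0.96, 0.63, and 0.42 in that line.

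The deoxynucleotide genes had the largest changes of the 37. Rrm2, the regulated small subunit of ribonucleotide reductase, went from 5.60, 6.66, and 6.66 RPKM at 0 hr to 49.0, 67.5, and 68.1 at 24 hr and 179, 186, and 189 at 48 hr in Stat5b WT cells. Its log2 change at 48 hr was 4.78 ± 0.25 (adjusted p = 7.8e-19), and 4.67 ± 0.25 in the Stat5a line (adjusted p = 1.4e-18). Tk1, the cytosolic thymidine kinase of dividing cells, followed with 3.98 in the Stat5a and 4.09 in the Stat5b line. Its changes at 4 hr were −1.384 and −1.077 in the same order of lines. Rrm1 (the large subunit), Dut and Dctpp1 (which destroy dUTP and modified dCTP), Dtymk and Tyms (which make dTTP precursors), Dck (a salvage kinase), and Samhd1 also rose in both lines at 48 hr. Rrm2b, the small subunit known from DNA repair in resting cells, changed most at 4 hr. It went from 3.78, 3.88, and 3.93 to 7.81, 7.41, and 7.85 RPKM in Stat5b WT cells and stood at 4.21, 4.59, and 4.22 at 48 hr, all above the 0 hr libraries, where its log2 change was 0.08 ± 0.11 (adjusted p = 0.53). In Stat5a WT cells the 48 hr change was 0.43 ± 0.11 (adjusted p = 6.5e-04), below the fold threshold. Its log2 change at 4 hr was 1.26 ± 0.11 in the Stat5a line, which passed both thresholds, and 0.84 ± 0.11 in the Stat5b line, which passed on p alone.

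The Tyms values carry a limit. Replicate 2 of the Stat5a WT cells at 4 hr had a Tyms level of 47.1 RPKM, against 3.58 and 5.38 in the other 2 libraries, and the processed pseudogene Tyms-ps stood at 62.0 RPKM there, against 0.9933 and 3.002. In the library left out these levels were 135.4 and 262.7 RPKM. The call of Tyms as higher at 4 hr in the Stat5a line, and as lower in that line's KI cells at the same time, rests on that library, and the SE of its log2 change (0.51 at 48 hr in the Stat5a line) was larger than that of Rrm2. Whether this copy affected the counts of the gene was not tested, so the Tyms level is uncertain in every library.

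The second comparison asked what the KI changed. At 48 hr 23 of the 37 genes fell in Stat5b KI against WT cells, where 10.7% of all genes fell, and 2 rose, against 15.7% of all genes. Of the Stat5a KI genes 3 fell (2.85% of all genes) and 0 rose (5.85%). These 3, Umps, Rrm2, and Dctpp1, were all among the 23 of the Stat5b line. Without the Stat5a WT library at 4 hr that stood apart, 1 of them, Dctpp1, was called, since Umps and Rrm2 then differed by −0.98 and −0.95. The count of genes lower was also 1 without WT replicate 2 at 48 hr, 5 without KI replicate 1, and 4 without WT replicate 1, where Ampd3 was called higher, and limma on log2(RPKM + 1) called 0. On the adjusted p alone 28 of 37 were lower in Stat5a KI cells, where 25.6% of all genes were, and all 28 were among the 30 lower in the Stat5b line by that rule (32.5% of all genes). The median log2 difference over the 37 genes was −0.77 in the Stat5a and −1.15 in the Stat5b line, against −0.004 and 0.06 over all genes. As a share of the WT median RPKM, the median gene stood at 62.3% for the Stat5a KI and 48.0% for the Stat5b KI.

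**Figure D2:**
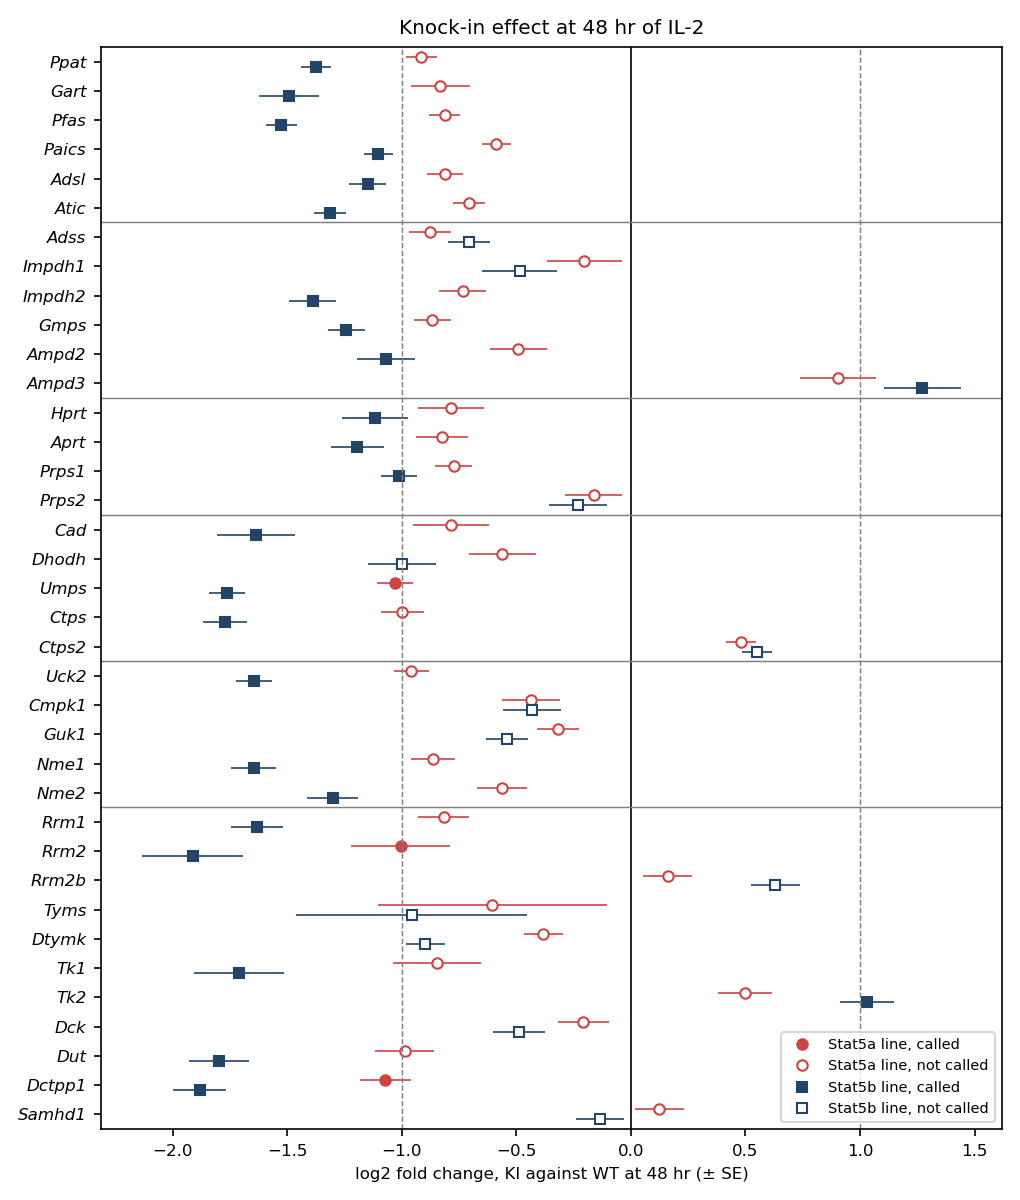
Log2 fold change of KI against WT cells at 48 hr for each of the 37 genes (edgeR, points, with bars of 1 SE), in the order of the role groups, for the Stat5a line (circles) and the Stat5b line (squares), with filled symbols for genes called and dashed lines at the fold threshold. Most squares lie left of the circles, and Ampd3, Ctps2, Rrm2b, and Tk2 lie right of 0 in both lines.

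The whole de novo purine group was lower in Stat5b KI cells at 48 hr, with 6 of 6 genes called and log2 differences from −1.52 (Pfas) to −1.10 (Paics). Pfas stood at 22.1, 21.1, and 21.8 RPKM in WT and at 8.53, 8.50, and 7.61 in KI libraries. Paics, which carries 2 of the middle steps, stood at 103, 102, and 100 in WT and at 52.5, 55.9, and 46.4 in KI libraries. All KI libraries lay below all WT libraries for each of the 6 genes in both lines, as they did for 26.2% of all genes in the Stat5a and 32.1% in the Stat5b line. In Stat5a KI cells all 6 were lower on the adjusted p alone, with differences of −0.91 (Ppat) to −0.59 (Paics), and 0 passed the fold threshold. Paics at 48 hr in that line was 92.5, 98.6, and 97.7 in WT and 73.8, 67.5, and 65.0 in KI libraries. Ppat and Paics lie head to head on chromosome 5 with overlapping ends, and the use of strand in the counting is not stated, so reads of the overlap could fall to either gene.

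In the AMP and GMP branches Impdh2, Gmps, and Ampd2 fell and Ampd3 rose in Stat5b KI cells. Impdh2 stood at 215, 205, and 210 RPKM in WT and at 93.1, 95.9, and 73.2 in KI libraries, a log2 difference of −1.39 ± 0.10 (adjusted p = 3.5e-14). Ampd3 was 0.518, 0.456, and 0.725 in WT and 1.504, 1.391, and 1.553 in KI libraries, a difference of 1.27 ± 0.17 (adjusted p = 3.7e-08). All KI libraries of Ampd3 lay above all WT libraries in the Stat5a line too, at 1.43, 1.15, and 1.10 against 0.731, 0.506, and 0.591, where the difference of 0.90 ± 0.17 passed on p alone (adjusted p = 3.1e-05). Impdh1, the housekeeping isozyme, was 55.2, 50.2, and 52.1 in WT and 43.7, 42.1, and 36.8 in KI libraries of the Stat5b line. Adss differed by −0.71 in the Stat5b and −0.88 in the Stat5a line, below the threshold on size in both.

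Of the salvage genes Aprt, Hprt, and Prps1 fell in Stat5b KI cells at 48 hr. The Prps1 difference of −1.01 lay at the fold threshold, and its call was lost in 10 alternatives. Aprt was 79.9, 82.2, and 72.0 RPKM in WT and 38.3, 39.0, and 34.2 in KI libraries, a log2 difference of −1.19 ± 0.12 (adjusted p = 2.7e-11). Prps2 was 24.3, 25.6, and 28.0 in WT and 23.3, 24.9, and 23.9 in KI libraries. These groups overlapped, and the Prps2 difference of −0.23 ± 0.13 did not pass the test (adjusted p = 0.10).

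Cad, Umps, and Ctps fell in Stat5b KI cells, by 1.64, 1.76, and 1.77 on the log2 scale, and Dhodh differed by −0.998, at the edge of the fold threshold. Ctps was 32.4, 31.0, and 32.0 RPKM in WT and 10.3, 11.3, and 8.84 in KI libraries of the Stat5b line, and 26.8, 31.5, and 30.5 against 17.3, 15.1, and 15.3 in the Stat5a line. Ctps2 lay on the other side, at 7.79, 7.69, and 7.93 in WT and 12.9, 12.1, and 12.3 in KI libraries of the Stat5b line, a log2 difference of 0.55 ± 0.07 (adjusted p = 4.5e-09).

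Among the kinases Nme1, Uck2, and Nme2 fell in Stat5b KI cells. Nme1 stood at 149.4, 149.6, and 131.4 RPKM in WT and 52.1, 52.8, and 45.1 in KI libraries, with a log2 difference of −1.65 ± 0.10 (adjusted p = 1.4e-16). Nme2, its abundant neighbour on chromosome 11, was 342, 345, and 319 against 156.5, 164.7, and 124.2. Cmpk1, the UMP and CMP kinase, was 34.6, 37.4, and 38.0 against 25.7, 31.7, and 31.1, a difference of −0.43 ± 0.13 (adjusted p = 0.0034). Guk1, the GMP kinase, differed by −0.54.

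The deoxynucleotide group held the largest fall and a rise. Rrm2 was 179, 186, and 189 RPKM in Stat5b WT and 51.7, 67.4, and 41.3 in Stat5b KI libraries at 48 hr, a log2 difference of −1.91 ± 0.22 (adjusted p = 1.7e-09). Its KI libraries in the Stat5a line stood at 98.2, 79.5, and 77.1, below all WT libraries with their median of 158, a difference of −1.005 ± 0.21 (adjusted p = 2.1e-04) that just passed the fold threshold. Dctpp1, Dut, Tk1, and Rrm1 also fell in Stat5b KI cells, by 1.88, 1.80, 1.71, and 1.63. Tk1 was 57.6, 60.1, and 55.5 RPKM in WT and 19.0, 23.1, and 15.6 in KI libraries of that line. Tk2, the mitochondrial thymidine kinase, rose with 8.88, 9.27, and 9.19 in WT and 22.6, 18.2, and 19.9 in KI libraries, a difference of 1.03 ± 0.12 (adjusted p = 1.6e-09). Rrm2b was 4.21, 4.59, and 4.22 in WT and 6.99, 7.30, and 7.65 in KI libraries, a difference of 0.63 ± 0.11 (adjusted p = 3.9e-06). Dck, Dtymk, and Tyms differed by −0.49, −0.90, and −0.96 and were not called, and Tyms did not pass on p either (adjusted p = 0.095).

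**Figure D3:**
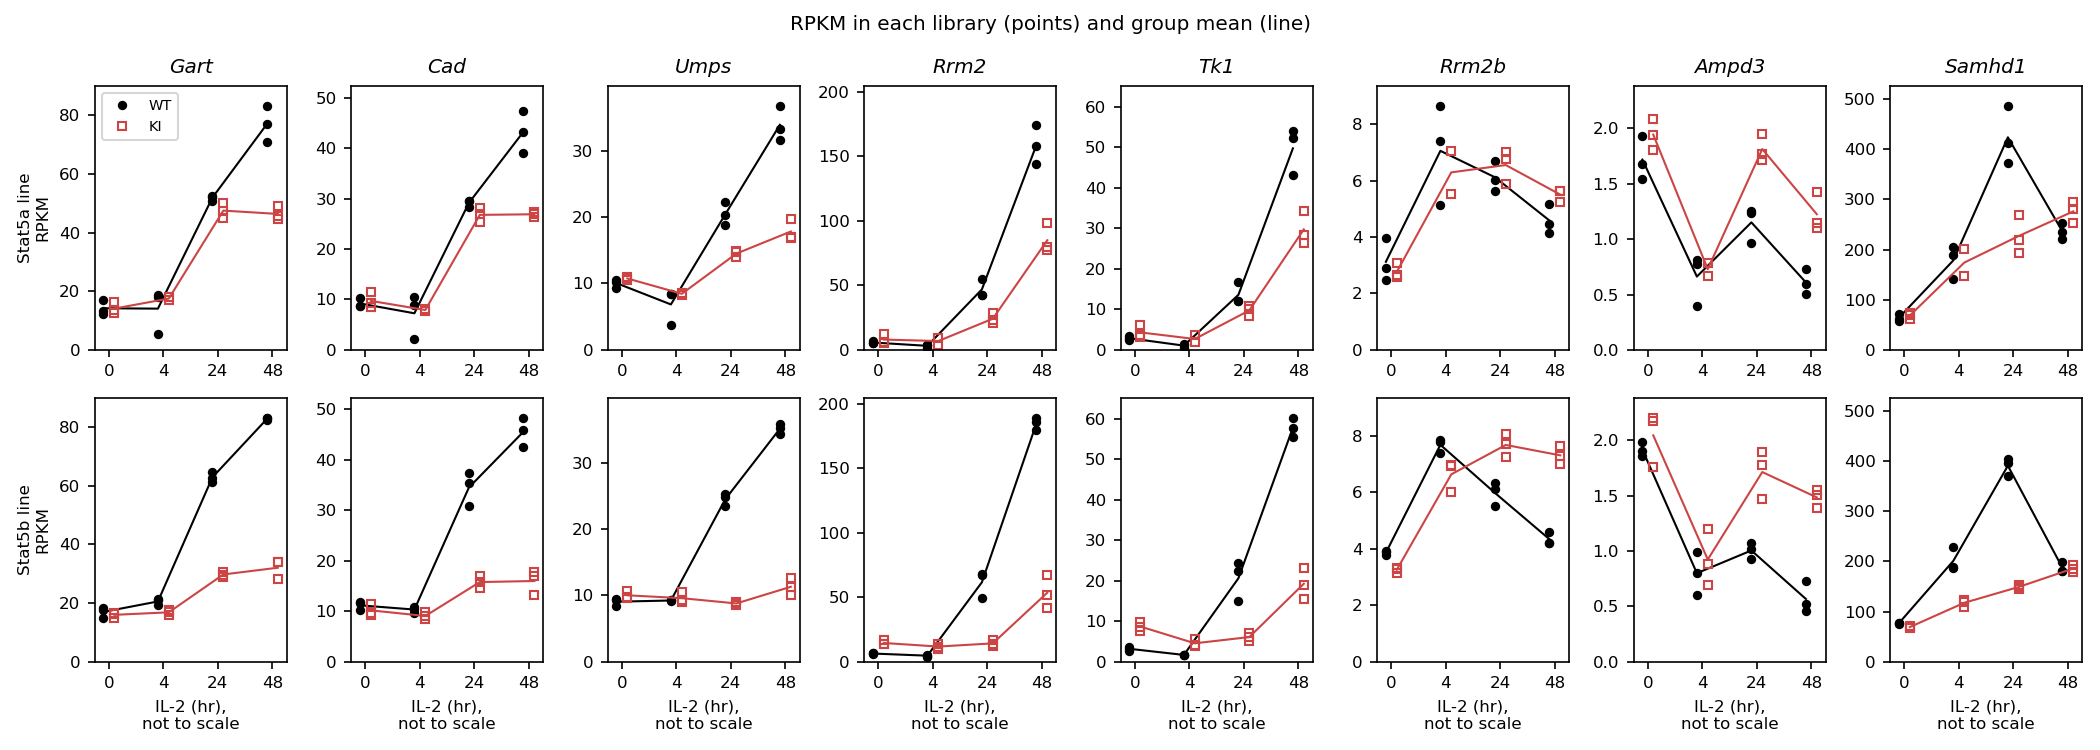
RPKM of 8 genes in each library (points: filled circles WT, open squares KI) and the group mean (lines) against time with IL-2 (hr, not to scale), with the Stat5a line above and the Stat5b line below and 1 vertical scale per gene. WT cells climb to 48 hr for Gart, Cad, Umps, Rrm2, and Tk1 while Stat5b KI cells stay low, and Samhd1 peaks at 24 hr in WT cells and reaches the WT level in KI cells at 48 hr.

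Samhd1, the phosphohydrolase that breaks down deoxynucleotides in resting cells, had its own time course. In Stat5b WT cells it stood at 77.4, 78.1, and 74.4 RPKM at 0 hr, at 186, 189, and 228 at 4 hr, at 404, 397, and 370 at 24 hr, and at 182, 182, and 199 at 48 hr. In Stat5b KI cells it was 71.2, 66.2, and 69.5 at 0 hr, then 119.5, 109.6, and 123.2, then 145.1, 148.6, and 153.5, and 193, 185, and 179 at 48 hr. The KI libraries thus lay below all WT libraries at 0, 4, and 24 hr and overlapped them at 48 hr. The log2 difference was −0.23 ± 0.11 at 0 hr (adjusted p = 0.11), −0.85 ± 0.11 at 4 hr (adjusted p = 1.9e-07), −1.42 ± 0.11 at 24 hr (adjusted p = 2.6e-13), and −0.13 ± 0.11 at 48 hr (adjusted p = 0.27). In the Stat5a line it was −0.997 ± 0.11 at 24 hr (adjusted p = 6.0e-08), just short of the fold threshold, and 0.12 ± 0.11 at 48 hr (adjusted p = 0.37).

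At 24 hr the KI difference in the Stat5b line was already broad, with 16 of 37 genes lower (5.78% of all genes) and 0 higher (10.9%). They were Ppat, Gart, Pfas, Impdh2, Cad, Umps, Ctps, Uck2, Nme1, Nme2, Rrm1, Rrm2, Tk1, Dut, Dctpp1, and Samhd1. For Stat5a 1 gene, Rrm2, was lower at 24 hr (1.36% of all genes) and 0 were higher (3.10%). It was 42.4, 55.3, and 42.9 RPKM in WT and 28.8, 23.1, and 20.6 in KI libraries, a log2 difference of −1.05 ± 0.22 (adjusted p = 6.5e-04), and its call was lost without WT replicate 2 or KI replicate 3 at 24 hr.

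In freshly isolated Stat5b KI cells 2 of the 37 genes were higher than in WT cells (7.13% of all genes), and 0 were lower (0.617%). Rrm2 stood at 13.3, 16.5, and 13.6 RPKM in KI and 5.60, 6.66, and 6.66 in WT libraries, a log2 difference of 1.12 ± 0.23 (adjusted p = 3.8e-04). Tk1 stood at 7.67, 9.68, and 8.68 in KI and 2.71, 3.23, and 3.59 in WT libraries, a difference of 1.37 ± 0.21 (adjusted p = 1.3e-05). The same 2 genes were higher at 4 hr (9.56% of all genes), by 1.26 and 1.36, and 0 were lower (1.12%). Of 15 genes of DNA replication and division, 4 were also higher at 0 hr (Mki67, Top2a, Ccna2, and Cdk1, by 1.09 to 1.47), as were all 6 erythroid markers, all 6 B cell markers, and 6 of 7 myeloid markers tested. Their part in the 0 hr levels of Rrm2 and Tk1 was not tested.

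In the Stat5a line 0 of the 37 genes were called at 0 hr in either direction, where 0.778% of all genes were higher and 0.199% lower. With edgeR 5 of the 37 had an unadjusted p under 0.05, and the share of all genes under that rule was not counted. DESeq2 and limma on log2(RPKM + 1) also called 0. Replicate 1 of these KI cells had the highest Rrm2 level of its group, 12.3 RPKM against 5.99 and 5.72. At 4 hr Tk1 was called higher (2.20% of all genes) and Tyms lower (4.48%) in Stat5a KI cells. Both calls were lost without replicate 2 of the WT cells at that time. The KI group at 4 hr held 2 libraries, so leaving out either leaves no spread within the group.

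The differences between responses were tested as such. The log2 change from 0 to 48 hr was lower in KI than in WT cells for 21 of the 37 genes in the Stat5b line, where it was lower for 11.5% of all genes, and higher for 2, Ampd3 and Tk2, against 9.80% of all genes. The median RPKM of Ampd3 at 48 hr was 0.272 of its 0 hr level in WT and 0.692 in KI cells of that line, and for Tk2 these ratios were 0.567 and 1.37. For Stat5a the log2 change was lower in KI cells for 4 genes (3.44% of all genes) and higher for 0 (2.85%). From 0 to 48 hr the median RPKM of Rrm2 went up 27.9-fold in WT and 3.80-fold in KI cells of the Stat5b line, and 29.9-fold and 13.3-fold in the Stat5a line. For Umps the folds were 3.77 and 1.15 in the Stat5b line and 3.25 and 1.60 in the Stat5a line.

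The KI effect at 48 hr was also compared between the lines. By the rule with the fold threshold 0 of the 37 genes differed, where 0.514% of all genes had a lower and 1.57% a higher effect in the Stat5b line, and DESeq2 and limma on log2(RPKM + 1) called 0 too. With edgeR 26 of the 37 had an unadjusted p under 0.05, a rule for which the share of all genes was not counted. On the adjusted p alone the effect was lower in the Stat5b line for 21 of 37 genes (7.98% of all genes) and higher for 2, Rrm2b and Tk2 (3.29%). The differences between the effects ran from −0.91 for Rrm2 to 0.53 for Tk2 on the log2 scale. The 21 held 6 of 6 de novo purine, 3 of 6 AMP and GMP branch, and 0 of 4 salvage and PRPP genes. They also held 3 of 5 pyrimidine, 3 of 5 kinase, and 6 of 11 deoxynucleotide genes. Differences between these role groups were not tested.

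For the genes with a close relative in the group, 7 pairs were set side by side by their RPKM ratio in each library. In WT cells the ratio moved toward the first gene of every pair from 0 to 48 hr. Ctps/Ctps2 went from 0.696, 0.644, and 0.724 to 4.16, 4.03, and 4.03 in Stat5b WT cells, so that the Ctps transcript level went from below to above that of Ctps2. In Stat5b KI cells at 48 hr it was 0.796, 0.936, and 0.719, near the WT ratio at 0 hr, and in Stat5a KI cells 1.45, 1.21, and 1.28. Tk1/Tk2 went from 0.1775, 0.1997, and 0.1984 to 6.49, 6.49, and 6.04 in Stat5b WT cells and stood at 0.840, 1.27, and 0.785 in Stat5b KI cells at 48 hr. Rrm2/Rrm2b went from 1.48, 1.72, and 1.69 to 42.5, 40.4, and 44.7 and stood at 7.39, 9.23, and 5.40 in the KI cells. Ampd2/Ampd3 went from 3.46, 3.52, and 3.44 to 35.3, 38.4, and 25.4 and stood at 6.62, 7.18, and 5.29 in the KI cells. The WT and KI libraries at 48 hr did not overlap in either line for any of these 4 ratios.

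The other 3 pairs shifted less. Impdh2/Impdh1 was 3.90, 4.08, and 4.02 in WT and 2.13, 2.28, and 1.99 in KI cells of the Stat5b line at 48 hr. Prps1/Prps2 was 1.80, 1.62, and 1.51 in WT and 0.996, 0.976, and 0.894 in KI cells. Nme1/Nme2 was 0.437, 0.434, and 0.412 in WT and 0.333, 0.321, and 0.363 in KI cells. Here too the groups did not overlap. The ratios are descriptions and were not tested.

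**Figure D4:**
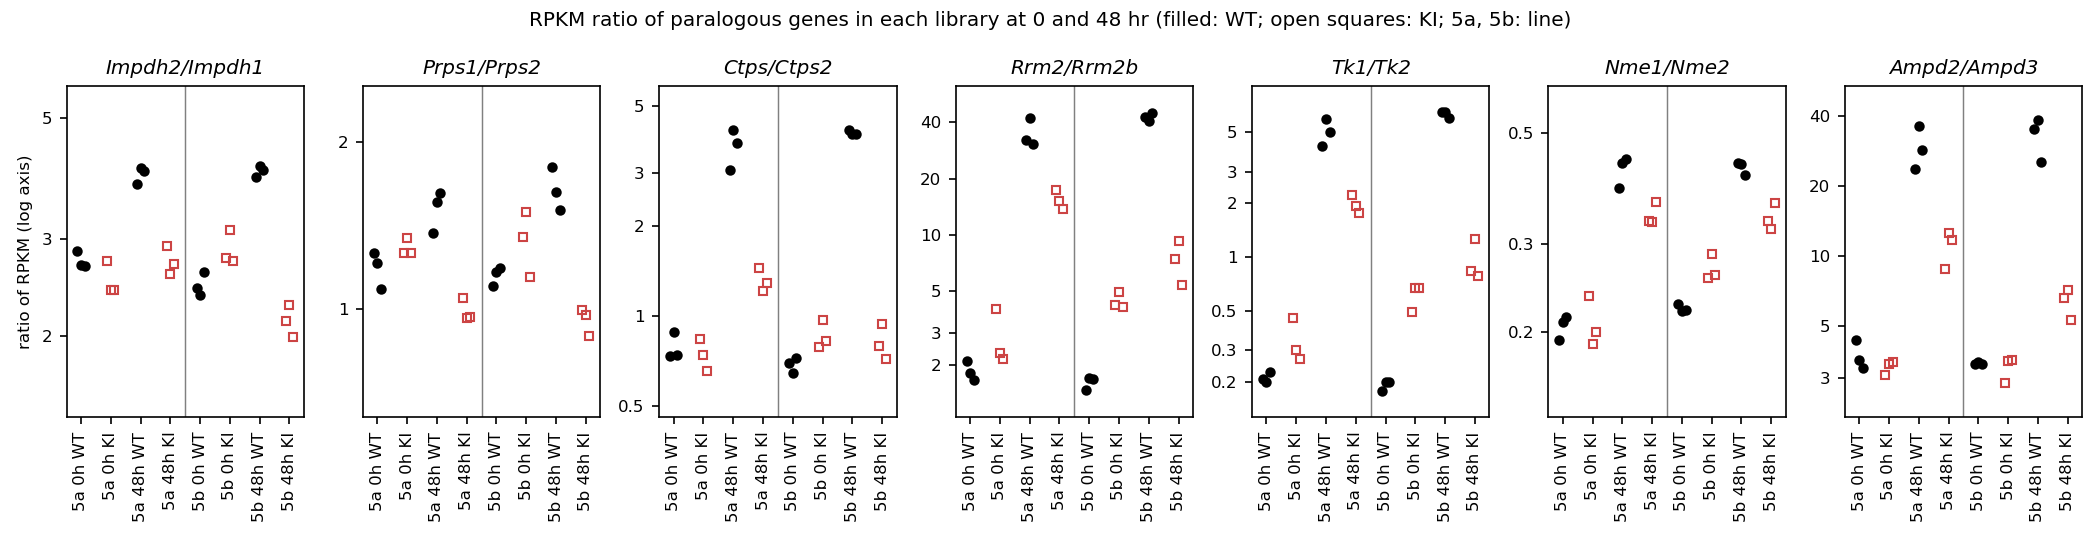
RPKM ratio of 7 pairs of related genes in each library (log axis, 1 scale per pair) at 0 and 48 hr for WT (filled circles) and KI cells (open squares) of the Stat5a (5a) and Stat5b (5b) lines. At 48 hr the KI ratios lie below the WT ratios in every pair and both lines, with the widest gaps in the Stat5b line for Ctps/Ctps2, Tk1/Tk2, Rrm2/Rrm2b, and Ampd2/Ampd3.

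Since most of the genes moved together, their promoters were read for 3 short motifs in the 250 bases before the RefSeq start site (GRCm38.p6, both strands). The E-box CACGTG, a site that MYC with MAX can bind, was in the promoter of 7 of the 34 genes with an entry (20.6%), against 6.86% of 27025 genes with one. The matches follow with 20 bases on each side where the window allows, and capitals mark the E-box. They are shown to give the sequence around each match. Of these 7 genes 6 rose in WT cells at 48 hr and the other, Ampd3, fell, beside 26 of all 37 that rose. Nme1 had a match before each of 2 start sites.
Atic (chr1:71557129-71557155, plus strand): gaggggcgggacctcggggtCACGTGg
Dtymk (chr1:93802057-93802102, minus strand): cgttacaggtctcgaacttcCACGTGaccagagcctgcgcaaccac
Tyms (chr5:30073661-30073706, minus strand): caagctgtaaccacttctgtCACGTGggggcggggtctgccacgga
Paics (chr5:76951079-76951124, plus strand): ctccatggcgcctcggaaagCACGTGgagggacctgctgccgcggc
Ampd3 (chr7:110772506-110772551, plus strand): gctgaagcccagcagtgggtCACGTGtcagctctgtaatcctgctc
Impdh2 (chr9:108560306-108560351, plus strand): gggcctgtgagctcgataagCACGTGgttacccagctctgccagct
Nme1 (chr11:93968273-93968310, minus strand): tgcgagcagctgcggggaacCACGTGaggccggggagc
Nme1 (chr11:93968029-93968074, minus strand): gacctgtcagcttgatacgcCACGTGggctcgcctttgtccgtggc

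The GAS motif TTCNNNGAA, the kind of site that STAT5 dimers bind, was in 3 of the 34 promoters (8.82%), against 8.13% of all genes with an entry. The share was near that of all genes. The matches are shown to give the sequence around each, and capitals mark the motif.
Samhd1 (chr2:157135303-157135346, minus strand): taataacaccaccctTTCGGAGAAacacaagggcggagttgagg
Paics (chr5:76951218-76951266, plus strand): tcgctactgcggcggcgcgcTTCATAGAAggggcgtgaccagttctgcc
Adsl (chr15:80948342-80948390, plus strand): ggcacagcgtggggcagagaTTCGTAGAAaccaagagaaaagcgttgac

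The E2F motifs TTTCGCGC, TTTGGCGC, and TTTCCCGC were in 1 of the 34 promoters (2.94%), that of Ppat, against 1.78% of all genes. The 3 motifs share no letters of a match with the E-box or with GAS here. A match is a stretch of letters, not a bound site, and other spellings of each motif were not searched.

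The neighbouring pathways were counted in the same fits. Of 7 MYC and E2F regulators, 6 rose in WT cells of each line at 48 hr (16.0% of all genes in the Stat5a and 16.2% in the Stat5b line) and 5 fell in Stat5b KI cells (10.7% of all genes), among them Myc (−1.25), E2f1 (−1.59), and Mycn (−5.22), the lowest of the list. In Stat5a KI cells 1 of the 7, Mycn (−1.84), fell (2.85% of all genes), and 6 were lower on the adjusted p alone (25.6%), with a median log2 difference of −0.64. Of 15 genes of DNA replication and division, 14 rose in WT cells of each line, all 15 fell in Stat5b KI cells, and 1, Ccne2, fell in Stat5a KI cells (2.85% of all genes), with the same shares of all genes for the other counts. On the adjusted p alone 14 of these 15 genes were lower in Stat5a KI cells (25.6% of all genes), with a median log2 difference of −0.72.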

How the data were processed

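The authors mapped single-end reads of 50 bases with TopHat 2.0.11 to GRCm38 (mm10), kept unique reads, and deposited raw counts for RefSeq transcripts and RPKM, divided by transcript length and the library's mapped reads. The deposited counts of the longest transcript per gene were fitted with edgeR 4.0.16 in R 4.3.3 (TMM, filterByExpr with a minimum count of 10, glmQLFit, glmQLFTest) in a single fit of 47 libraries and 16 groups with 17 comparisons. P-values were adjusted over the 15562 genes tested. SEs are those the test implies. Alternatives were DESeq2 1.42.0, its size factors, limma 3.58.1 on log2(RPKM + 1) or log2(RPKM + 0.1) over genes with 1 RPKM in 3 libraries or more, no filter, other transcripts and libraries, a replicate block, and each library left out. No pair of libraries of a group agreed within sampling noise (chi-square per gene 4.83 to 1939 over 48 pairs), and depth covers counting error only. The upper end came from the library left out, and the highest value between used libraries was 220.7. The 37 genes and all lists were chosen with earlier results of these data known. Every gene is named with its calls, and values by library are given for the extreme members of each role group by the Stat5b difference at 48 hr and for paralogous pairs. Other genes with values by library, and Tyms, were chosen after their values were seen. Figures were drawn with matplotlib 3.10.9. A ChIP control sample was not used. The one-carbon list is not reported here.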

Additional observations from a re-analysis of the deposited data

Results flagged for a closer look

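Results are listed here because the test of a difference between 2 responses passed both thresholds. The 48 hr response to IL-2 differed between KI and WT cells for 23 of the 37 genes in the Stat5b line (11.5% of all genes lower and 9.80% higher) and for 4 in the Stat5a line (3.44% and 2.85%). The differences below are on the log2 scale, KI minus WT, from the edgeR fit.

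For Stat5a they were −1.09 for Umps, −1.44 for Rrm2, −1.38 for Tk1, and −1.13 for Dctpp1. In the Stat5b line the same genes had −1.83, −3.03, −3.08, and −2.34. The other deoxynucleotide genes of that line were Rrm1 with −2.21, Dut with −2.19, and Tk2 with 1.31. Part of the Rrm2 and Tk1 values in the Stat5b line came from KI levels above WT at 0 hr, as given above. Rrm1, Dut, and Dctpp1 also had all KI libraries above all WT libraries at 0 hr in that line. On the adjusted p alone 6 of its 11 deoxynucleotide genes were higher in KI cells at 0 hr and 1 was lower. The shares of all genes under these rules were not counted at 0 hr.

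In the de novo purine group of the Stat5b line the differences were −1.35 for Ppat, −1.33 for Gart, −1.45 for Pfas, −1.09 for Paics, and −1.15 for Atic. The branch genes Impdh2, Gmps, Ampd2, and Ampd3 had −1.21, −1.31, −1.01, and 1.26. Hprt and Prps1 had −1.17 and −1.02, and the pyrimidine genes Cad and Ctps had −1.42 and −1.80. The kinases Uck2, Nme1, and Nme2 had −1.51, −1.69, and −1.08.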

How the results depend on the processing

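At 48 hr 0 of 2516 alternative values of the genes' log2 changes turned direction, 59 lost a call, and 23 gained one. The calls at the fold threshold moved most. Without that threshold the count of genes called went from 5 to 24 (Stat5a) and 3 to 18 (Stat5b) at 4 hr and from 16 to 31 and 21 to 34 at 24 hr in WT cells. For KI against WT cells it went from 0 to 1, 2 to 12, 1 to 21, and 3 to 31 at 0, 4, 24, and 48 hr in the Stat5a line and from 2 to 8, 2 to 13, and 16 to 34 at 0, 4, and 24 hr in the Stat5b line, from 4 to 29 for the Stat5a response, and from 0 to 23 for the difference between lines. With limma on log2(RPKM + 1), with or without its filter, the WT counts at 4 hr were 2 and 1, and those of Stat5a KI at 24 and 48 hr were 0 and 0, as they were with a pseudocount of 0.1. At 4 hr the Stat5a KI count was 1 by limma and 0 without its filter.

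The Stat5a KI calls were few and depended on the libraries. At 4 hr their count was 4 with all 48 libraries, 1 with the replicate block, and 0 with only the groups compared. At 24 hr it was 2 with no filter on low counts and 2 with all 48 libraries, and at 48 hr 1 with only the groups compared. Without the WT library at 4 hr that stood apart (46 libraries, an alternative chosen after seeing the data) the counts were 0 at 4 hr and 1 at 48 hr. Leaving out each WT library in turn gave 0 to 2 genes at 4 hr (0 without WT replicate 2). The KI libraries at 4 hr were too few for this to leave a spread within their group. Leaving out each library of both genotypes gave 0 to 2 at 24 hr (0 without WT replicate 2 or KI replicate 3). At 48 hr it gave 1 to 5 (1 without WT replicate 2, 5 without WT replicate 1 or KI replicate 1). It gave 0 to 2 for the difference between lines, with 2 without Stat5b KI replicate 2, and 24 to 26 for Stat5b KI at 48 hr. Rrm2 in the Stat5a line at 48 hr lost its call in 10 alternatives and Prps1 in the Stat5b line in 10.

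Deviations of same-numbered Stat5a WT libraries correlated at 0.207, 0.276, and 0.42 for 24 against 0 hr. For 48 against 0 hr they correlated at 0.169, 0.116, and 0.193. In Stat5b WT cells these values were positive too, at 0.142, 0.053, and 0.122 for 24 hr and 0.019, 0.027, and 0.057 for 48 hr. At 4 hr they were 0.085, 0.008, and 0.138 there, and −0.224, 0.257, and 0.424 in Stat5a WT cells. For KI against WT cells the signs were mixed or negative. Apart from the Stat5a KI count at 4 hr, the replicate block changed no count by over 1.5 times. DESeq2 size factors moved the median of all genes by −0.10 (log2) at most, in Stat5a WT cells at 48 hr.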

Other observations

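Other enzymes of nucleotide handling were counted by the same rule. At 48 hr in WT cells 16.0% of all genes rose and 20.8% fell in the Stat5a line, and 16.2% rose and 19.2% fell in the Stat5b line. Of 30 other salvage and interconversion genes tested, 7 rose and 2 fell at 48 hr in Stat5a WT cells and 9 rose and 2 fell in Stat5b WT cells, with median log2 changes of 0.56 and 0.36. In Stat5b KI against WT cells 9 fell (10.7% of all genes) and 3 rose (15.7%), with a median difference of −0.32. In Stat5a KI against WT cells 3 fell (2.85%) and 1 rose (5.85%), with a median difference of −0.20. The lowest was Ak4, a mitochondrial adenylate kinase, at −2.36 in the Stat5b and −1.94 in the Stat5a line, followed by Dctd, the dCMP deaminase, at −1.85 and −1.05. Ampd1, the muscle AMP deaminase, and Adssl1 were higher in Stat5b KI cells, by 1.51 and 1.24, and both fell in WT cells during culture with IL-2.

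Of 14 breakdown genes tested, 2 rose and 2 fell at 48 hr in WT cells of each line, to be read against the same shares of all genes. Ada (adenosine deaminase) and Upp1 (uridine phosphorylase) rose in WT cells, whereas Gda, the guanine deaminase, fell by 3.30 in the Stat5a and 3.01 in the Stat5b line. In Stat5b KI cells at 48 hr 2 of the 14 were higher (15.7% of all genes) and 1 lower (10.7%), with a median difference of −0.22. In Stat5a KI cells 1 was higher (5.85%) and 0 lower (2.85%), with a median difference of −0.24. Gda was higher in KI than in WT cells at 48 hr in both lines, by 1.47 and 1.96, and in Stat5b KI cells it was higher by 2.09 before IL-2. Myeloid and B cell markers were higher in the same KI libraries, and their part in the Gda difference was not tested.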
